A study of Danio rerio with 6 samples.

Results

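The genes described here are 8 genes of Nodal signalling and left-right patterning, out of 24832 gene IDs in the RNA tables of a zebrafish study of DNA methylation. They are the ligand genes gdf3, ndr2 and spaw, the transcription factor gene foxh1, the inhibitor genes lft1, lft2 and dand5, and the enzyme gene elovl6. They were chosen by name and found by symbol, 1 gene ID and 1 table row for each. The levels come from whole embryos at the 10-somite stage, with 1 RNA-seq library of dnmt1 morphants and 1 library of control embryos, whose label calls their cells normal. A morphant carries a morpholino, a synthetic antisense molecule injected into the egg that stops one RNA from being translated or spliced. Dnmt1 is the maintenance enzyme that passes DNA methylation to daughter strands at replication. The labels do not give the strain, the type or dose of the morpholino, how many embryos were pooled, or what the controls received. The comparison asks how these transcripts differ between morphant and control embryos. The study also holds 4 MeDIP libraries (antibody pull-down of methylated DNA) made at 80% epiboly, 2 of dnmt1 morphants and 2 of controls. Peaks at these genes were not analysed here, because no gene positions on the build of the peak lists were at hand.

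Nodal proteins are secreted ligands of the TGF-beta family. They bind activin receptors together with an EGF-CFC co-receptor, and the receptors pass the signal to Smad proteins that act with FoxH1 in the nucleus. In fish, Nodal induces mesoderm and endoderm before and during gastrulation, and later acts on the left side only, where it sets the side of heart and gut. Lefty proteins are made in response to Nodal and block it, which closes a feedback loop. At somite stages the ciliated Kupffer vesicle at the tail end produces a leftward fluid flow, and dand5, expressed around it, holds Southpaw (spaw) in check on the right.

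Read assignment was of like depth in both libraries, with 10.05 M in the morphant and 9.90 M in the control library (M, megareads). The targeted transcript, dnmt1, had 3194 reads in morphants and 2423 in controls, that is 1.30 times the control level (95% exact interval of the counts, 1.23 to 1.37). Since translation can be stopped while the target RNA stays in place, this value does not check the knockdown. With 1 library per group no difference has a replicate check, and every interval covers counting error only. A ratio is morphant over control CPM, a gene's share of its library's reads. Genes that had 50 or more reads in the 2 libraries together were ranked, and a gene was called higher or lower when its ratio was at least 2-fold. Of 13575 ranked genes, 254 (1.87%) were higher and 90 (0.663%) were lower, or 2.53% in either direction.

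The 8 genes did not move as one in morphant embryos. The Lefty gene lft1 was lower, the ligand gene gdf3 was higher, and foxh1, dand5 and elovl6 lay within 2-fold. The remaining genes, ndr2, lft2 and spaw, had 6 to 14 reads in all and were not ranked. Thus 5 of the 8 passed the read minimum, 1 of them called higher, beside 1.87% of all ranked genes, and 1 called lower, beside 0.663%. These genes were picked with results of the same libraries known, so that count is a description.

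**Figure D1:**
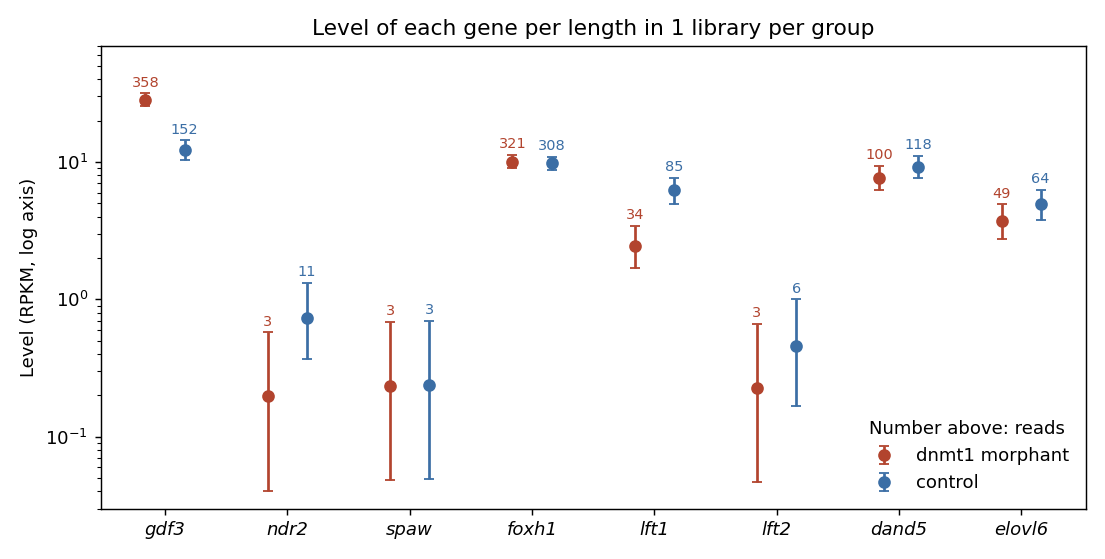
Level of the 8 genes in RPKM (reads per kilobase of gene and megaread, log axis), with the dnmt1 morphant library left of the control library for each gene; points are the 2 libraries, bars are 95% exact Poisson intervals of the read count, and the numbers are reads. The intervals of the 2 libraries are apart for gdf3 (358 reads in morphants, 152 in controls) and lft1 (34 and 85), and overlap for the other genes.

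Among the ligand genes, gdf3 was the one with substantial expression. It encodes Vg1 (also Dvr1), a TGF-beta family protein that fish embryos receive as maternal RNA and that pairs with Nodal ligands. In morphants gdf3 (ENSDARG00000037995) had 358 reads, or 28.5 RPKM, against 152 reads, or 12.3 RPKM, in controls. The morphant level was the higher one and the counting intervals did not meet: 25.6 to 31.6 RPKM in morphants and 10.4 to 14.4 RPKM in controls. The ratio was 2.32 (interval 1.91 to 2.82), a log2 ratio of 1.21. The lower bound lies below 2-fold, so counting error alone leaves room for a ratio just under the size rule. It was the 151st highest ratio of the 13575 ranked genes. Among 2902 genes whose total reads were within 1.5-fold of those of gdf3, 29 (0.999%) were at least 2-fold higher.

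The gain in gdf3 reads came without wider coverage of the gene. Reads covered 91.6% of its 1250 listed bases in morphants and 93.9% in controls, that is 1145 and 1174 bases. Rows with 1 read cover 49 bases in both tables, so a read spans 49 bases. Of the 254 genes called higher, 4 (1.57%) were covered less in morphants than in controls, and gdf3 is one of them. Of those 254, 15 were already covered to at least 90% in controls, where little room for wider coverage is left, and gdf3 was the 1 gene of these 15 covered less in morphants. These counts were made after the values were seen.

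The Nodal ligand genes proper were close to the detection limit. Cyclops, ndr2 (ENSDARG00000040299), which acts in the ventral midline and forebrain of the gastrula, had 3 reads (0.197 RPKM) in morphants and 11 (0.734 RPKM) in controls. The ratio of 0.269 had an interval of 0.0481 to 1.02, which reaches equality. Its 3 morphant reads covered 147 bases, as many as 3 reads that do not overlap, and its 11 control reads covered 441 bases. On the RefSeq map of assembly GRCz12tu, which is not known to be the authors' build, ndr2 overlaps the neighbouring genes pald1a and ascc1. Reads from overlapping genes can be lost or misplaced in counting, and the strand setting of the counting is not stated in the labels or headers.

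Southpaw, spaw (ENSDARG00000014309), the Nodal ligand of the left lateral plate mesoderm and Kupffer vesicle region, had 3 reads in morphants and 3 in controls. The level was 0.236 RPKM in morphants, with an interval of 0.0487 to 0.691, and 0.240 RPKM in controls, with an interval of 0.0495 to 0.701. In each library the 3 reads covered 147 of 1263 bases, so they did not overlap. Both counts are at the floor of 3 reads used here, and no ratio is given. Squint, ndr1, the Nodal ligand supplied by the mother and made around the margin of the early gastrula, had 0 reads in morphants and 0 in controls. A count of 0 allows up to 3 reads, or 0.187 RPKM in morphants and 0.190 RPKM in controls.

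foxh1 (ENSDARG00000055630) encodes the forkhead protein through which Smad2 reaches Nodal target genes. It had 321 reads in morphants and 308 in controls, or 10.1 and 9.80 RPKM. With a ratio of 1.03 (interval 0.875 to 1.20) it stood near the middle of all ranked genes, at percentile 51.6, and its log2 ratio of 0.04 turned to -0.003 with TMM scaling. It was also the member read most often, 629 reads in all, and so the one with the tightest interval. Covered bases were nearly the same, 84.6% in morphants and 85.0% in controls.

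Of the inhibitor genes, lft1 (ENSDARG00000019920) was called lower. Lefty1 is a feedback inhibitor of Nodal that at somite stages is expressed in the notochord, where it forms a midline barrier, and later in the left diencephalon. Morphants had 34 reads, or 2.45 RPKM, against 85 reads, or 6.22 RPKM, in controls. The control level was the higher one, and the counting intervals of 1.70 to 3.42 RPKM in morphants and 4.97 to 7.69 RPKM in controls did not meet. The ratio was 0.394 (interval 0.257 to 0.593), a log2 ratio of -1.34, the 29th lowest of the 13575 ranked genes. The upper bound lies above a ratio of 0.5, so here too counting error leaves room for a change smaller than 2-fold. Among 2493 genes with total reads within 1.5-fold of those of lft1, 24 (0.963%) were at least 2-fold lower. Reads covered 71.5% of the 1381 listed bases in morphants and 89.1% in controls. Of the 90 genes called lower, 86 (95.6%) were covered less in morphants, and in this lft1 is like most of them. In RNA of whole embryos, fewer expressing cells and less RNA per cell cannot be told apart.

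The second Lefty gene, lft2 (ENSDARG00000044059), known from the left heart field, had 3 reads (0.226 RPKM) in morphants and 6 (0.460 RPKM) in controls. Its ratio of 0.492 had an interval of 0.0797 to 2.31, too wide to place it on either side of 1. Its reads did not overlap in either library: they covered 147 bases in morphants and 294 in controls. The depth therefore shows no difference for lft2, and does not show that it behaved unlike lft1. dand5 (ENSDARG00000036471), also called charon, encodes an antagonist of the Cerberus family that binds Nodal. It had 100 reads (7.69 RPKM) in morphants and 118 (9.21 RPKM) in controls, a ratio of 0.834 with an interval of 0.633 to 1.10. That interval holds 1 and leaves out a 2-fold change in either direction.

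elovl6 (ENSDARG00000004402) encodes an enzyme that lengthens fatty acids, and in zebrafish its transcripts mark the left lateral plate mesoderm downstream of Southpaw. It had 49 reads (3.71 RPKM) in morphants and 64 (4.93 RPKM) in controls. The ratio was 0.754 (interval 0.509 to 1.11), so the levels were not told apart at this depth. It is also expressed outside the left mesoderm, which whole embryos do not separate.

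**Figure D2:**
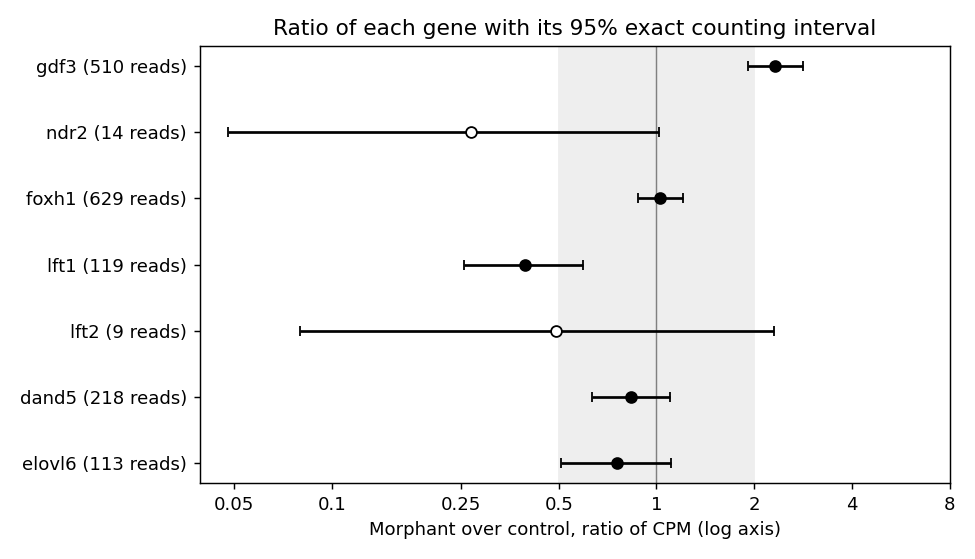
Ratio of morphant over control CPM (log axis) for 7 of the 8 genes, with 95% exact counting intervals; filled points are genes with at least 50 reads, open points have fewer, the grey band spans ratios from 0.5 to 2, and spaw is left out because both counts are at the floor. Of the filled points, lft1 at 0.394 and gdf3 at 2.32 lie outside the band. The open points of ndr2 (0.269) and lft2 (0.492) also lie outside it, but their intervals each reach from well below 0.5 to above 1.

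The order of levels per length separated 5 expressed genes from 3 that were nearly absent. In morphants the RPKM order was gdf3, foxh1, dand5, elovl6, lft1, spaw, lft2 and ndr2. Neighbours in that order whose intervals did not overlap were gdf3 and foxh1, dand5 and elovl6, and lft1 and spaw. In controls the order was gdf3, foxh1, dand5, lft1, elovl6, ndr2, lft2 and spaw, and the only neighbours with separate intervals were elovl6 and ndr2. lft1 thus stood above elovl6 in controls and below it in morphants, but in each library the intervals of the pair overlapped.

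The transcripts of gdf3 and lft1 stood in a different proportion in the libraries. This pair has the highest and the lowest ratio of the ranked genes of the set, so the size of the difference follows from the choice of pair. It does not describe ligand and inhibitor genes in general. Per length, gdf3 RNA was 11.6 times lft1 RNA in morphants and 1.98 times in controls. The proportion was 5.89 times larger in morphants (exact conditional interval 3.72 to 9.43, counting error only), which restates the values above as one. Relative to lft1, dand5 stood at 3.14 in morphants and 1.48 in controls. Relative to dand5, gdf3 stood at 3.71 in morphants and 1.33 in controls.

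**Figure D3:**
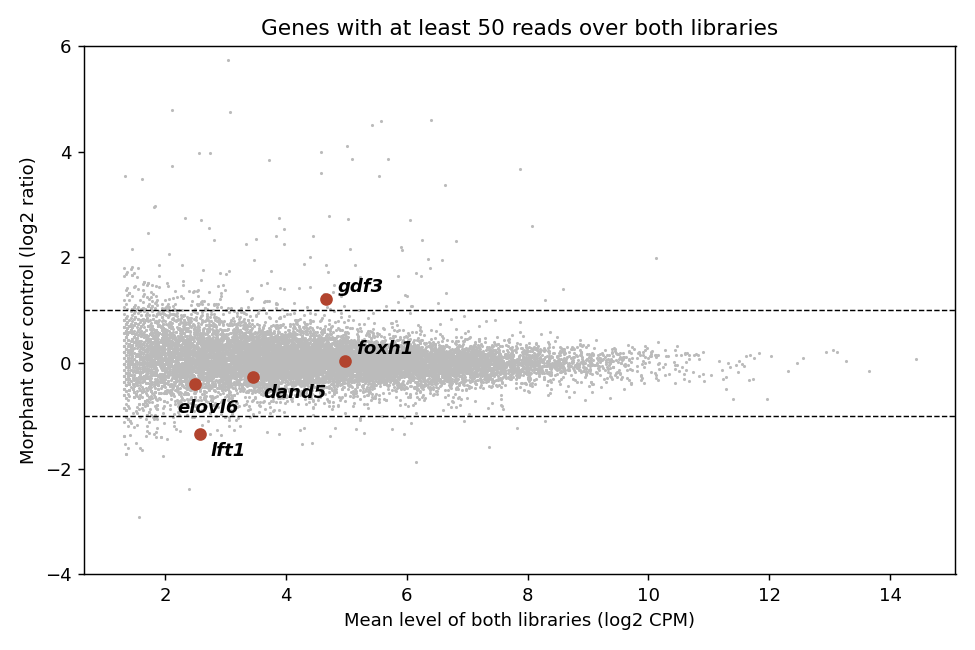
Log2 ratio of morphant over control against the mean level of both libraries (log2 CPM) for all 13575 ranked genes (grey), with the 5 genes of the set that were ranked in red; dashed lines mark 2-fold. gdf3 lies above the upper line and lft1 below the lower line, while foxh1, dand5 and elovl6 lie between the lines. Their ratios stand at percentiles 51.6, 15.1 and 7.45 of all ranked genes.

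The nearest genes to lft1 and gdf3 on the GRCz12tu map had ratios near 1 where they had enough reads. Beside lft1, the RNA-binding protein gene hnrnpub had a ratio of 1.10 (interval 1.07 to 1.13) and the kinase gene cdc42bpab, on the other side, 1.27 (1.04 to 1.55). The next genes out, kif26bb and fbxo16, had 1 read each in morphants, against 1 and 5 in controls. Near gdf3, the replication gene mcm8 had a ratio of 0.966 (0.728 to 1.28) and hao1, an oxidase gene, 1.15 (0.642 to 2.07). Direct neighbours of gdf3 gave no comparison, since napba had 0 reads in both libraries and bmp2a was not matched to a gene ID. None of the neighbours looked up for lft1 and gdf3 overlaps its member on that map.

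The rest of the pathway was read through lists of known genes, and so were markers of tissue, somite stage and oocyte. These lists were chosen with earlier results of these data known. Across all 10 lists, pathway and markers together, 61 ranked genes were not among the 8. Of these 61, 0 were at least 2-fold changed, against 2.53% of all ranked genes. Without a replicate this count comes from the size rule, with no p-value. Of the 61 genes 40 (65.6%) had a ratio below 1, against 45.7% of all ranked genes, and their median log2 ratio was -0.12, against 0.03 over all ranked genes. With edgeR's TMM scaling these shares were 70.5% and 52.0%.

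Of 6 ranked genes in the list of ligands, co-receptor and receptors, gdf3 was called higher and 0 were called lower. Ratios were above 1 for 5 of the 6, or 4 with edgeR's TMM or DESeq2's scaling, and the median log2 ratio was 0.20. The EGF-CFC co-receptor gene tdgf1 (one-eyed pinhead) had 175 reads in morphants and 150 in controls, a ratio of 1.15 (interval 0.918 to 1.44). The type II activin receptor gene acvr2ba had a ratio of 1.47 (1.14 to 1.90), its paralogue acvr2bb 1.15 (1.003 to 1.325) and the type I receptor gene acvr1ba 0.950 (0.859 to 1.05). Without gdf3 the median was 0.20 over 5 genes.

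Of the signal transducers, 0 of 7 ranked genes were called, and the median log2 ratio was -0.01, against 0.03 over all ranked genes. Without foxh1 the median was -0.12 over 6 genes, 4 of them with ratios below 1. The receptor-regulated smad2 had a ratio of 1.06 (interval 0.945 to 1.20). Of the genes for nuclear repressors of Smad activity, all within 2-fold, skia had a ratio of 0.746 (0.657 to 0.846), tgif1 0.813 (0.775 to 0.853) and skib 0.855, with an interval of 0.719 to 1.02 that holds 1. Of the factors of early mesoderm and endoderm in this list, mixl1 had 9 reads in morphants and 8 in controls, and eomesa 0 and 3.

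All 5 ranked inhibitor genes had ratios below 1, though lft1 was the one called lower, and the list median was -0.38. The decoy receptor gene bambia had 535 reads in morphants and 694 in controls, a ratio of 0.759 (interval 0.677 to 0.851). The inhibitory Smad gene smad7 had 133 and 170 reads, a ratio of 0.770 (0.609 to 0.972). trim33, a ubiquitin ligase gene that acts on Smads, was level at 0.987 (0.916 to 1.06). bambia and smad7 also serve BMP and TGF-beta feedback, so the list is not specific to Nodal.

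Known Nodal and mesendoderm targets also lay low. Of 17 ranked gene IDs, 13 had ratios below 1, lft1 alone was called, and the median was -0.39, or -0.31 without lft1. The organizer gene chrd, a BMP antagonist, had a ratio of 0.564 (interval 0.515 to 0.617), and the homeobox gene lhx1a 0.595 (0.485 to 0.729). osr1, a zinc-finger gene of the intermediate mesoderm, had 0.684 (0.554 to 0.842) and the head gene otx2b 0.710 (0.644 to 0.782). By this stage these genes are also expressed in tissues not derived from the organizer. The organizer gene gsc had 18 reads in morphants and 28 in controls, and the endoderm gene sox17 18 and 31, both just below the read minimum.

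In the left-right list, 13 of 14 ranked genes had ratios below 1, with a median of -0.24, or -0.13 over the 11 genes that are not among the 8. The chemokine receptor gene cxcr4a had 108 reads in morphants and 203 in controls, a ratio of 0.524 (interval 0.411 to 0.665), the nearest to 2-fold. The heart matrix enzyme gene has2 had a ratio of 0.599 (0.523 to 0.685) and bmp4, a ligand gene with left-sided heart expression, 0.739 (0.614 to 0.889).

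**Figure D4:**
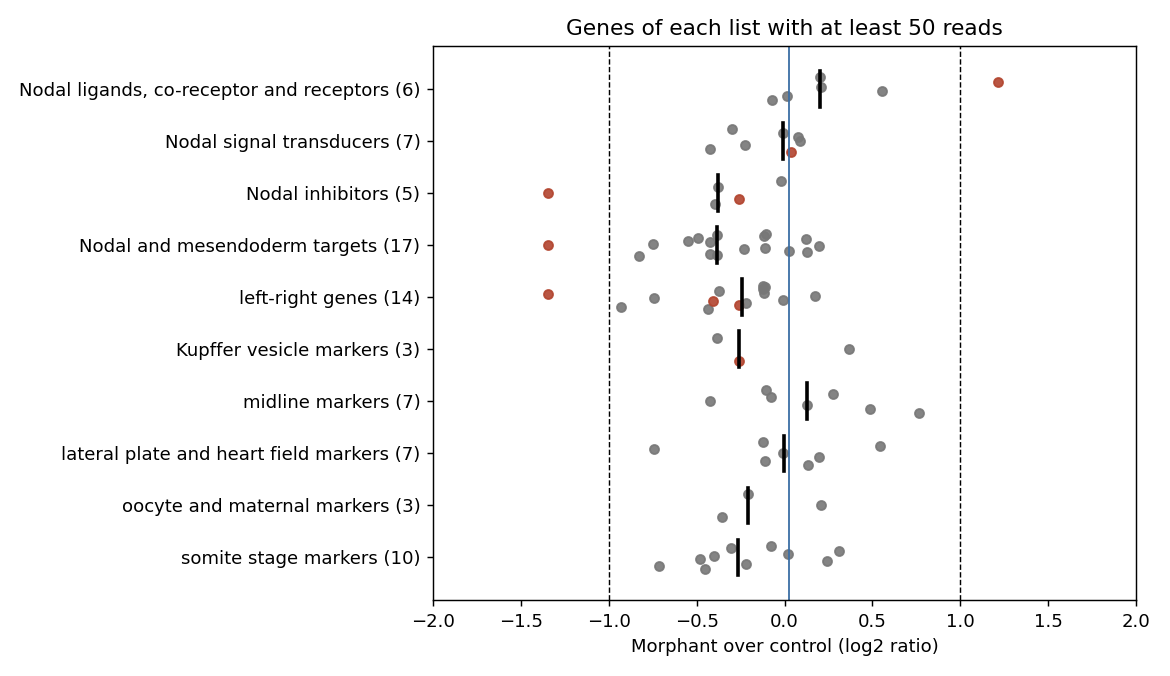
Log2 ratio of morphant over control for the ranked genes of each list (number in brackets); red points are genes of the set of 8, grey points the other genes, black bars the list medians, the blue line the median of all ranked genes (0.03), and dashed lines 2-fold. Every grey point lies inside 2-fold, and the inhibitor, target and left-right medians lie left of the blue line at -0.38, -0.39 and -0.24.

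Markers of the tissues that express these genes give the setting. For Kupffer vesicle, 5 of 7 markers were matched and 3 ranked, with 0 called and a summed 1903 reads in morphants and 2309 in controls, most of them from tbx16, which is also a tailbud gene. The cilia regulator foxj1a had a ratio of 1.29 (interval 1.07 to 1.55), tbx16 0.765 (0.715 to 0.819), and the chloride channel gene cftr had 3 reads in morphants and 11 in controls. No matched marker of this list was at 0. For the midline, where lft1 is expressed, 7 of 7 markers ranked and 0 were called, with 6797 reads in morphants and 5138 in controls. There col2a1a had a ratio of 1.70 (1.60 to 1.81), col8a1a 1.40 (1.29 to 1.52), the Hedgehog ligand gene shha 1.21 (1.05 to 1.40) and noto 0.744 (0.565 to 0.978), while foxa2 was at 1.09, ntn1a at 0.948 and tbxta at 0.930. Without the collagen genes col2a1a and col8a1a, a split made after the values were seen, the other 5 markers summed to 2433 reads in morphants and 2436 in controls. The midline median of 0.13 turned to -0.08 when genes were matched by symbol alone, which leaves out both col2a1a and foxa2.

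Lateral plate and heart field markers, from tissue that responds to Southpaw, had a median of -0.01, with 0 of 7 ranked genes called and 2975 reads in morphants against 3129 in controls. That median lay between -0.06 and 0.06 under the alternatives and changed sign with the matching of names and with no read minimum. Ratios were below 1 for 4 of the 7 and above 1 for 3. The largest departure was that of has2, at 0.599 as given above, while gata6 had a ratio of 1.15 (interval 1.03 to 1.27), gata4 1.10 (0.895 to 1.35) and nkx2.5 1.46 (0.833 to 2.59).

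Somite markers, which move with developmental stage, lay low: of 10 ranked genes 7 had ratios below 1 (8 with TMM or DESeq2's scaling), 0 were called, and the median was -0.26. The summed reads were 7808 in morphants and 8869 in controls. Of the clock genes, her7 had a ratio of 0.610 (interval 0.517 to 0.718) and her1 0.732 (0.650 to 0.823), and the presomitic gene msgn1 0.716 (0.658 to 0.779). The myogenic gene myf5 had 0.758 (0.667 to 0.862). The 3 genes with ratios above 1, other myogenic genes among them, stood at 1.01 to 1.24, and each interval holds 1. The ratios of this list thus leaned low, but not all were below 1. An interval that holds 1 does not show that a gene was unchanged. The part of stage in the lft1 ratio of 0.394 was not tested.

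Because gdf3 is supplied maternally, other oocyte and maternal genes were set beside it. Whether the gdf3 reads at this stage come from maternal RNA was not tested. Of 16 listed genes, 13 were matched, 3 were ranked and 0 were called, with 193 reads in morphants and 218 in controls. The germ cell gene ddx4 (vasa) had a ratio of 0.780 (interval 0.508 to 1.19), the egg coat gene zp3b 0.866 (0.613 to 1.22) and the egg gene zar1 1.16 (0.638 to 2.11). The matched genes under the read minimum leaned both ways and had too few reads to compare. Among them npm2a had 0 reads in morphants and 1 in controls, zp2.1 had 5 and 10, dazl 8 and 4, and cldnd 6 and 2. The ratios of the 3 ranked genes lay below the 2.32 of gdf3, but the interval of zar1 reaches into that of gdf3, which begins at 1.91.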

How the data were processed

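RNA-seq of whole zebrafish embryos at the 10-somite stage gave 2 tables, 1 of dnmt1 morphants and 1 of controls. Per the submitters' processing notes, TopHat2, BWA, HTSeq 0.6.1 and MACS2 were used, with no role stated. Neither labels nor headers name a genome build. Per the file headers, the authors deposited unique read counts per Ensembl gene, RPKM and coverage (the covered fraction of the gene). The RPKM deposited by the authors equal count, listed length and library total recombined in all 25022 rows. A dash was read as 0, and 376 rows with a repeated ID were added up per ID.

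Ratios of CPM used the table totals, without a prior. Intervals are 95% Clopper-Pearson or exact Poisson intervals, which cover counting error only, since reads are not independent molecules. edgeR 4.0.16 and DESeq2 1.42.0 (R 4.3.3) gave the alternative scalings. All other steps ran in Python 3.11.15 with SciPy 1.17.1, numpy 2.4.6, pandas 2.3.3 and, for plots, matplotlib 3.10.9. Symbols came from Ensembl for 12556 IDs and through the RefSeq protein of the best match for 7817, and 4459 had none. Of 106 listed symbols 89 were matched, 14 of them by a capital Ensembl name and 8 by the words of the protein match. Named genes are the 8 members and, per list, those past 2-fold and up to 4 more by size of ratio, besides ligands, inhibitors, targets and markers under the minimum, named with reads. The genes, lists and name matches were chosen with earlier results of these data known. In counts simulated for 13575 genes, the 2-fold rule called 0.0972% of unchanged genes, 2% of the 50 changed 1.5-fold and 98% of the 50 changed 3-fold. The simulated counts varied by counting error only. These rates therefore leave out all other variation between libraries and are no error rates for the real data. One listed gene enters the list counts and medians but is not reported here by name. The MeDIP peak lists were not used.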

Additional observations from a re-analysis of the deposited data

How the results depend on the processing

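lft1 stayed at least 2-fold lower and gdf3 at least 2-fold higher in all 5 alternatives of scaling, pseudocount, prior and row choice, with log2 ratios of -1.38 to -1.07 for lft1 and 1.15 to 1.21 for gdf3. All 35 alternative ratios of the 7 genes with a ratio lay inside their counting intervals. The row choice is no check on these genes, since each has 1 table row and its ratio could not move. The read minimum and the size rule moved the counts. Another read minimum also changes how many genes are ranked, so those counts are not shares and cannot be set against 1.87% and 0.663%. With no minimum above 0 reads, 3 of the genes were lower (lft1, ndr2 and lft2), beside 2725 genes higher and 2400 lower in all. Reads were present for 22353 gene IDs in the morphant library and 22180 in the control library, so 2-fold calls were common at this setting. With at least 200 reads lft1 dropped out, which left 0 lower, beside 88 genes higher and 22 lower. At 4-fold 0 of the genes were higher and 0 lower, against 46 and 2 of the 13575 ranked genes. At 1.5-fold 891 genes were higher and 462 lower, and with RPKM and a pseudocount of 1 they were 107 and 32. The prior count of 2 and matching by symbol alone were added after the data were seen. Of 79 alternative list medians all lay inside the spread of their list, which medians over mostly the same genes could hardly leave. The signs that turned are given above. At 200 reads no oocyte gene was left. No paired analysis was possible because each RNA group has 1 library. Depth limits ndr2, lft2 and spaw, with 6 to 14 reads each.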

Other observations

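The Ensembl-named activin receptor gene ACVR1C, named after its values were seen, had 8 reads in morphants and 0 in controls, below the read minimum. Near spaw on the GRCz12tu map, but not next to it, the splicing gene usp39 had 568 reads in morphants and 901 in controls. Its ratio was 0.621 (95% exact counting interval 0.558 to 0.690, 1 library per group). The gene lrrc20, near ndr2, had 87 and 122 reads, a ratio of 0.702 (0.527 to 0.932). Other neighbours lay above 1: near foxh1, oplah had a ratio of 1.28 (1.07 to 1.53) and stat5b 1.23 (1.06 to 1.43).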
